A study of Mus musculus with 2 samples.

Results

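The endothelial cells of the larger vessels of the healthy mouse liver were the 221 cells of 1 single-cell RNA library that carried more RNA of large-vessel genes than of sinusoidal genes. They made up 3.96% (exact 95% interval 3.46 to 4.51) of the 5580 cells kept from that library, and the whole series held 14757 cells. RNA molecules were counted as UMIs, the unique molecular identifiers that tag each captured molecule. A cell was a member if it had at least 1000 UMIs with at most 30% from mitochondrial genes, at least 5 UMIs summed over the endothelial genes Pecam1, Cdh5, Egfl7 and Eng, and at least 3 UMIs summed over Vwf, Gja5, Bmx and Mmrn1, with this last sum above that of Clec4g, Stab2 and Oit3. The members were therefore selected on these 11 genes, and the levels of the 11 are given below as a description of the selection. They were set beside the 3044 sinusoidal cells of the same library, which had at least 5 UMIs of Clec4g, Stab2 and Oit3 together and no UMI of Vwf.

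The study compared liver cells of healthy mice with those of mice given carbon tetrachloride (CCl4), a hepatotoxin that causes fibrosis when given repeatedly, and provided 1 library of each kind. All mice were Col1a2CreER:Rosa26tdTomato animals, in which tamoxifen switches on a red fluorescent protein in cells that use the Col1a2 promoter. CCl4 was injected for 12 weeks from an age of 8 to 10 weeks. The healthy library came from uninjured mice, and their age, the number of mice behind each library and whether the healthy mice received tamoxifen are not given in the sources used here. Livers were digested with pronase and collagenase, the cells were purified on a density gradient and most CD45+ blood cells were removed with magnetic beads, so the share of endothelial cells recovered need not be their share in the organ. With 1 library per condition no value below has a replicate. The intervals are 95% intervals that cover counting error only, and the cells of a library are not replicates of a condition.

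Endothelial cells line all blood and lymph vessels. In the liver, blood from the portal vein and the hepatic artery mixes in the sinusoids, whose lining is perforated and scavenges actively, and then leaves through the central veins. Arteries and veins have a continuous lining that rests on a basement membrane, stores von Willebrand factor and controls the tone of the surrounding muscle. Endothelial cells of central veins are also known as a source of Wnt ligands and of the R-spondin Rspo3, which strengthens Wnt signals, for the hepatocytes next to them.

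The healthy library held 6297 cells and 51122846 UMIs, and the CCl4 library 8460 cells and 97611831 UMIs. The libraries shared 10 cell barcodes, and 0 of them belonged to a member. Members had 1147 to 63818 UMIs with a median of 7984 and a median of 2965 genes, while the sinusoidal cells had a median of 6150 UMIs. The deepest member supplied 3.50% of the UMIs of all members.

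Vwf, which encodes von Willebrand factor, was the most common of the 4 large-vessel genes, with UMIs in 212 members and 0, 12 and 54 UMIs in the lowest, median and highest cell. Gja5, a gap junction protein of arterial endothelium, was seen in 104 members, and Bmx, a tyrosine kinase that also marks arteries, in 116. Mmrn1, which encodes multimerin 1 and is strong in lymphatic endothelium, was seen in 10. Pecam1, a junction protein of all endothelium, was seen in 219 members and Cdh5, the endothelial cadherin, in 212. The membership was thus carried by Vwf in nearly all cells, with Gja5, Bmx and Mmrn1 each marking a part of them. Of the sinusoidal genes, Clec4g was still seen in 144 members at a median of 1 UMI, against a median of 27 in the sinusoidal cells, and 22.6% of cells gated as cholangiocytes held it. At the edge of the rule, 5 members had a large-vessel sum of exactly 3 and 2 cells were left out with a sum of 2. In 7 members the large-vessel sum was 1 UMI above the sinusoidal sum, in 9 cells left out the sums were equal, and 88 further endothelial cells had at least 3 large-vessel UMIs but more sinusoidal ones.

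Against the sinusoidal cells, the members carried RNA of elastic fibres, vascular tone and a continuous lining, and lacked much of the RNA of scavenging. Levels are given as CPM, the UMIs of a gene summed over a group of cells and scaled to 1000000 UMIs in all. Of 12741 genes with at least 20 UMIs in both groups together, 927 were at least 2-fold higher in the members with the whole interval above 1, which is 7.28% of the genes measured, and 947 (7.43%) were at least 2-fold lower. The median gene differed by -0.05 on the log2 scale. Counts under 3 were raised to 3 in ratios, so that a ratio against 0 UMIs is a bound set by that floor. The counting interval can reach lower, to 375-fold for Nkx2-3 (468-fold at the floor).

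The genes with the largest ratios among those with at least 50 CPM included the matrix genes Col8a1, Mgp and Fbln5 and the natriuretic peptide clearance receptor Npr3. Col8a1, a collagen of vessel walls, had 435 UMIs in 87 members and 6 UMIs in 6 sinusoidal cells, a ratio of 771 (interval 351 to 2111). Npr3 had 405 UMIs in 86 members and 8 in the sinusoidal cells. Both genes were thus found in well under the full membership, at 39.4% and 38.9% of members. Each was seen in 0.197% of sinusoidal cells and 0.0858% of 1166 cells gated as cholangiocytes (meant for bile duct cells, median 11698 UMIs). That gate may hold other cell types, as 367 of its cells had 3 or more UMIs summed over 13 mesenchymal genes. Mgp, which encodes the calcification inhibitor matrix Gla protein, reached 1256 CPM in members and 5.12 in sinusoidal cells, with 0, 1 and 300 UMIs in the lowest, median and highest member. Its highest member held 13.1% of its UMIs, and its share of cells was 18.1% also in the cholangiocyte gate, so that Mgp was not limited to endothelium in this library. Nkx2-3, a homeobox gene, had 132 UMIs in 41 members and 0 in the sinusoidal cells, at least 468-fold higher with those cells set at the floor of 3 UMIs. Emp1, Thsd7a, Syt15, Lox, Gucy1a1, Fndc1 and Ly6c1 were also among the 15 highest, with ratios of 150 (Ly6c1) to 289 (Syt15). Cyp1b1 had 151 UMIs against 1. Cytl1 and Ccl21a were on the same list through 11 and 8 members.

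Genes of vessel-wall matrix were divided within the basement membrane and elastic matrix list, where 9 of 25 measured genes were higher and 4 lower (median log2 ratio 0.64). Eln, the elastin precursor, stood at 346 CPM in members, with 630 UMIs in 156 of them, and had 58 UMIs in 28 sinusoidal cells. The cholangiocyte gate held Eln in 17.5% of its cells, so that it was not limited to endothelium either. Fbln2 and Fbln5, fibulins that help to assemble elastic fibres, had ratios of 106 (87.0 to 130) and 156 (113 to 221), and Lox, which cross-links elastin and collagen, had 92 UMIs against 5. The basement membrane collagens went the other way, with Col4a1 2.82-fold (2.55 to 3.13) and Col4a2 3.52-fold (3.01 to 4.13) lower, as were the elastic fibre component Emilin1 (6.59-fold) and the heparan sulfate proteoglycan Hspg2.

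The vascular tone list had 7 higher and 2 lower of 18 measured genes (median log2 ratio 0.31). Edn1, the precursor of the vasoconstrictor endothelin, had 1317 UMIs in 158 members (0, 3 and 34 in the lowest, median and highest cell) and 127 UMIs in 53 sinusoidal cells, a ratio of 110 (91.8 to 133). Ednrb, an endothelin receptor, was 14.8-fold higher, and Ace, the angiotensin-converting enzyme, 47.4-fold (33.7 to 68.3). Nos3, the endothelial nitric oxide synthase, had a ratio of 1.25 and passed neither fold. Nostrin, a regulator of that synthase, and the vasodilator peptide gene Adm were the members of the list that were lower.

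In the list of the continuous barrier and caveolae, 12 of 20 genes were higher and 0 lower (median log2 ratio 1.36). The caveola genes Cavin3, Cavin1 and Cav1 had ratios of 49.7, 4.13 and 4.05. Plvap, the protein of the diaphragms that span endothelial openings, stood at 867 CPM in members and 132 in sinusoidal cells, a ratio of 6.57. It was seen in 90.5% of members and 41.6% of sinusoidal cells, and in 75.0% and 21.5% once each cell was thinned to 2000 UMIs, which left 203 members and 2792 sinusoidal cells. The share in the cholangiocyte gate was 1.37%. Cd34 and Ly6a, surface proteins of vascular endothelium, were 7.30-fold and 6.06-fold higher. Cldn5, the main claudin of endothelial tight junctions, was an exception within the list, at 1043 CPM in members and 1292 in sinusoidal cells, and its members divided sharply, as given below.

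The coagulation and fibrinolysis list had 9 higher and 3 lower of 20 genes (median log2 ratio 0.92). Entpd1, an ectonucleotidase that clears platelet-activating ADP, had a ratio of 57.5 (43.6 to 76.9), Plat, the tissue plasminogen activator, 52.6 (36.6 to 77.4), and Procr, the protein C receptor, 7.65. F8, the clotting factor made by liver endothelium, Tfpi and F3 were lower. The adhesion list was mixed, with 7 higher and 5 lower of 19. Selp, the P-selectin that is stored beside von Willebrand factor, was 29.3-fold higher (23.6 to 36.6), while the chemokine genes Cxcl1, Cxcl9 and Cxcl10 were lower. Foxc2, Tcf15, Meox1, Gata6, Foxc1, Id1 and Foxp1 were the transcription factor genes that were higher of 27 measured, and Maf and Ets1 were lower, 7.31-fold and 3.02-fold. In the list of immediate early and heat shock genes, whose RNA can increase within the time of a cell isolation, 5 of 16 were higher in the members and 0 lower (median log2 ratio 0.57), among them Hspb1 (8.38-fold) and Atf3 (2.31-fold), and their part in the other differences was not tested.

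**Figure D1:**
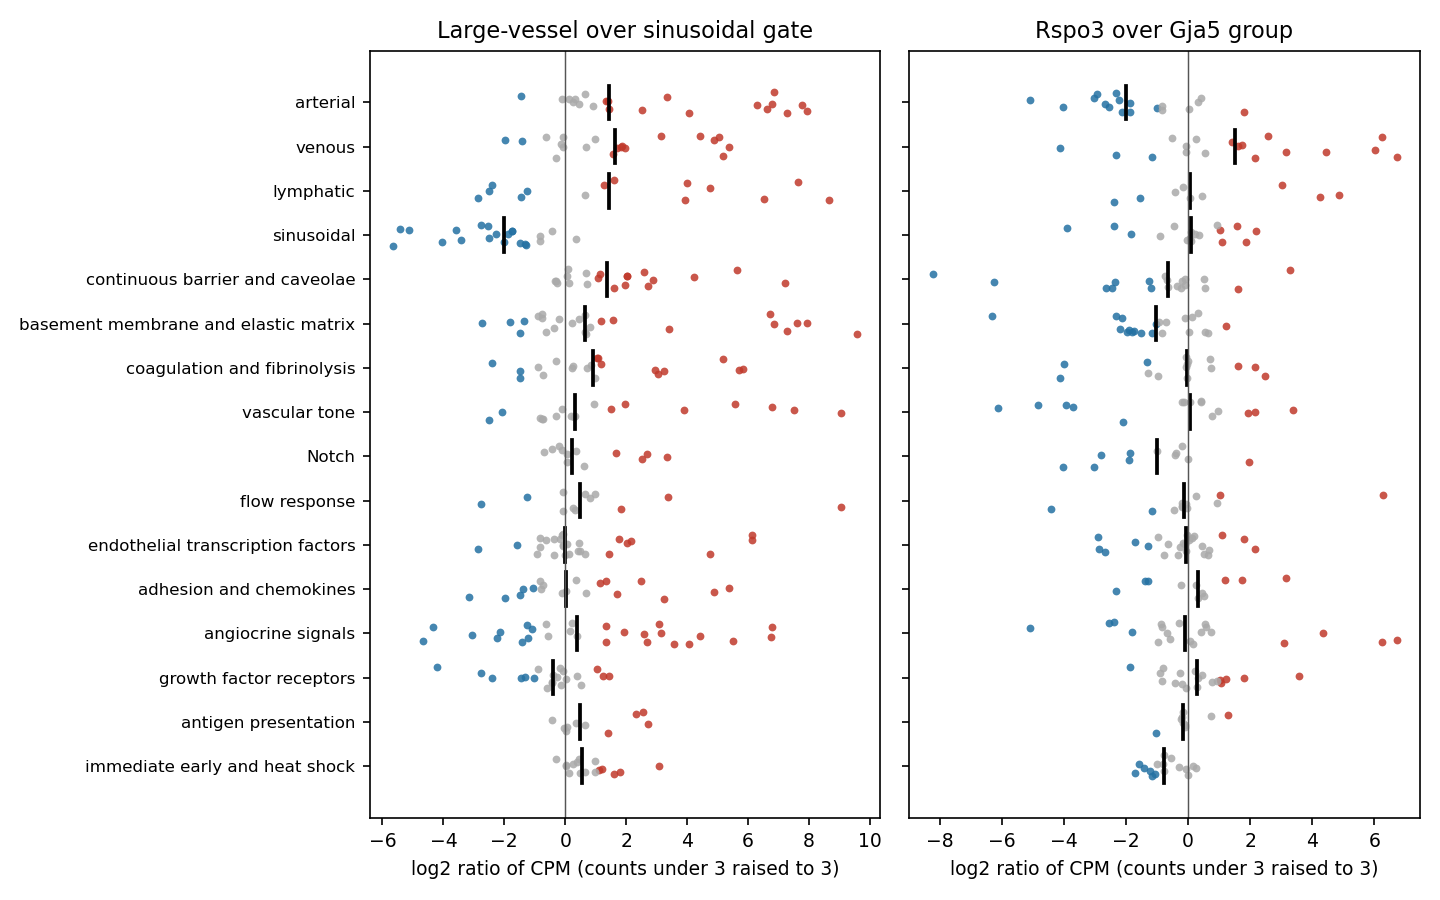
Each point is a measured gene of the list in its row, placed by its log2 ratio of CPM between members and sinusoidal cells (left panel) or between the Rspo3 and Gja5 groups defined further on (right panel), with genes at least 2-fold higher in red, lower in blue and others in grey, and a black bar at the median. In the left panel the arterial, venous, barrier and sinusoidal lists have medians of 1.44, 1.63, 1.36 and -2.02, beside -0.05 over all 12741 genes, and in the right panel the arterial list has a median of -2.01.

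The sinusoidal list had 0 higher and 17 lower of 21 measured genes (median log2 ratio -2.02). Dnase1l3, a secreted DNase of scavenging endothelium, had 134 UMIs in 43 members and 71271 in 3017 sinusoidal cells, or 73.6 and 3683 CPM, with an interval of 42.2-fold to 59.7-fold lower. Thinned to 2000 UMIs, it was seen in 9.12% of members, 98.9% of sinusoidal cells and 3.27% of the cholangiocyte gate. Clec1b, a C-type lectin, was 43.3-fold lower, Mrc1, the mannose receptor, 11.9-fold, and Kdr, the main receptor for VEGF, 6.74-fold (6.21 to 7.32). Stab1, a scavenger receptor, was lower by less, 2.45-fold, and was seen in 209 members. Genes among the 15 lowest outside the list were the metallothioneins Mt2 (2 UMIs against 2308) and Mt1 (26.6-fold lower), Adam23, a membrane protein of the disintegrin family (50.6-fold lower), the Rac activator Tiam1 (1 UMI against 1296) and the cytokine receptor gene Cntfr (0 against 1104, at least 34.6-fold lower). Aass, Enpep, Col13a1, Gatm, Pla2r1, Itga8, Akr1b8 and the transcript Plet1os completed the 15 lowest, at 20.6-fold to 35.2-fold lower.

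Of the signals that endothelial cells send to their neighbours, the members held another set than the sinusoidal cells, with 13 of 27 measured genes higher and 9 lower (median log2 ratio 0.39). Bmp4 was at 283 CPM in members and 2.64 in sinusoidal cells, and Bmp2, which signals to hepatocytes in iron control, was at 65.9 and 1329. Hgf, the hepatocyte growth factor, had 2 UMIs in the members and 804 in the sinusoidal cells. Vegfc, a growth factor for lymphatic vessels, was 16.6-fold (14.3 to 19.3) higher and Nrg1, the ligand neuregulin of the EGF family, 105-fold (74.5 to 153). Rspo3 was at 1427 CPM against 67.0, and Wnt9b at 112 against 12.7. Wnt2 went the other way, at 149 CPM in members and 403 in sinusoidal cells.

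The level of Rspo3 did not describe all members. It had 0 UMIs in 140 members, 1 or 2 in 5, 3 to 5 in 9, 6 to 10 in 10 and at least 11 in 57. Gja5, a gene of the selection rule, had UMIs in 104 members. The 2 genes were seen together in 0 members, with 81 that held Rspo3 only, 104 that held Gja5 only and 36 that held neither. After this was seen, the members were divided into a Rspo3 group of 74 cells (at least 3 UMIs of Rspo3), a Gja5 group of 104 cells (at least 1 UMI of Gja5), a Mmrn1 group of 9 cells (at least 2 UMIs of Mmrn1, which took precedence) and 34 remaining cells. The median depths of the first 2 groups were close, at 8349 and 8081.5 UMIs, and the deepest cell supplied 4.55% and 6.72% of their UMIs. These deepest cells also held 651 and 1212 UMIs of cholangiocyte genes. Since these groups were formed after inspection of the data, their contrasts are descriptions.

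**Figure D2:**
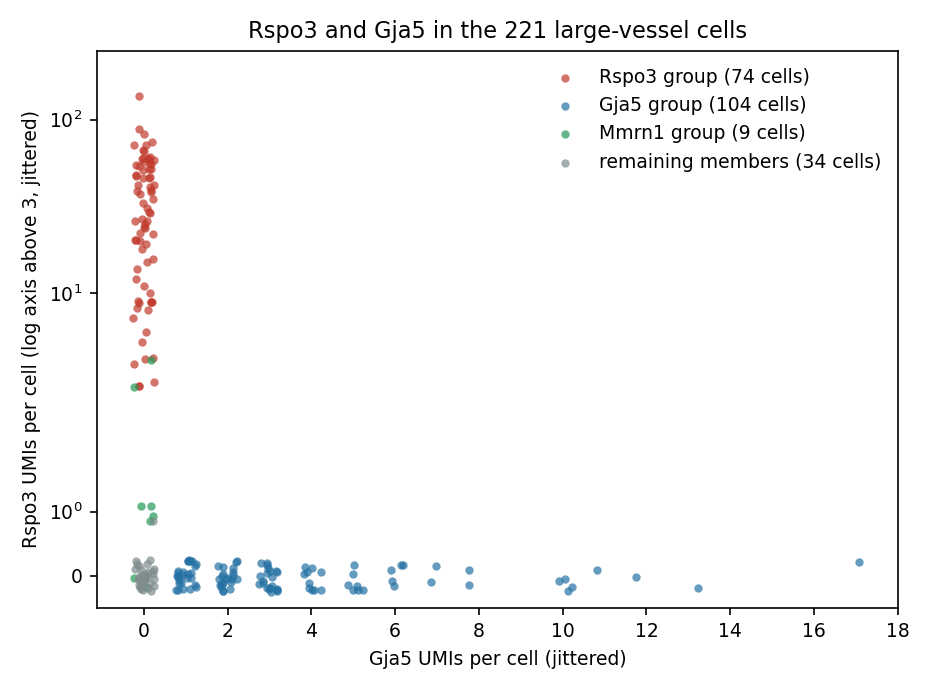
Each point is a member, with its UMIs of Gja5 on the horizontal axis, its UMIs of Rspo3 on the vertical axis (logarithmic above 3) and its group as the colour, jittered slightly to separate equal values. The points lie along the axes, and 0 members held both genes.

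Between the Rspo3 group and the Gja5 group, 8208 genes were measured, of which 414 (5.04%) were at least 2-fold higher in the Rspo3 group and 467 (5.69%) lower. Most genes of the venous list that differed were higher in the Rspo3 group, and most of the arterial list in the Gja5 group. Of 18 measured venous genes other than Rspo3, 10 were higher in the Rspo3 group and 3 lower, and of 18 arterial genes 1 was higher and 12 lower (median -2.01), beside a median of -0.00 over all genes. Gja5 itself was used to form the groups and is not in these counts. The lists were chosen with earlier results of these data known. Wnt9b, Wnt2, Lhx6 and Amigo2 of the venous list are also among the 15 highest ratios of this contrast. The counts therefore describe the groups and do not test their venous or arterial character.

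The Rspo3 group carried most UMIs of the Wnt ligands Wnt9b and Wnt2 among the members. Wnt9b had 204 UMIs in 60 of its 74 cells (0, 2 and 11 in the lowest, median and highest cell) and 0 UMIs in the 104 cells of the Gja5 group, for which the floor of 3 counts is 2.88% of cells and 3.16 CPM and the exact interval of the share reaches 3.48%. All Wnt9b UMIs of the 221 members lay in the Rspo3 group, at 331 CPM, against 12.7 CPM in the sinusoidal cells, where 158 of 3044 cells held a UMI. The background share in the cholangiocyte gate was 0.429%. Wnt2 had 248 UMIs in 63 cells of the Rspo3 group, or 403 CPM, and 5 UMIs in 4 cells of the Gja5 group. Its level in the Rspo3 group was that of the sinusoidal cells, 403 CPM, while the Gja5 group stood at 5.27 and the remaining cells at 16.3. The Mmrn1 group held 16 UMIs of Wnt2 in 7 of its 9 cells, and 11 UMIs of Rspo3 in 6.

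Further genes ran with Rspo3. Lhx6, a LIM homeobox gene, had 125 UMIs in 52 cells of the Rspo3 group against 1 UMI in the Gja5 group. Bmp4 stood at 677 CPM against 79.0, a ratio of 8.57 (6.69 to 11.1), and Tgfb2, a ligand of the TGF-beta family, at 279 against 13.7. Selp was 8.87-fold (6.44 to 12.5) higher and was seen in 64 of 74 and 25 of 104 cells. Icam1, a leukocyte adhesion molecule, Ptgs1, the constitutive cyclooxygenase, and Ephb4, the venous ephrin receptor, had ratios of 3.34, 4.44 and 2.64. Other high ratios were those of Cyp1b1, a cytochrome P450 (151 UMIs against 0, at least 77.6-fold), Fndc1 (93 against 0), Col6a3 (84 against 0), Prss23, Samd5, Rnf165, Chn2, Amigo2 (21.5-fold) and the guidance cue Ntn1 (16.7-fold). The neurotensin gene Nts had 56 UMIs in 11 cells of the Rspo3 group and 0 in the Gja5 group. The sinusoidal list went both ways, with 5 of 17 measured genes higher in the Rspo3 group and 3 lower (median log2 ratio 0.09). Among genes that the sinusoidal cells hold at a high level, these were higher in the Rspo3 group than in the Gja5 group: Nrp1, a coreceptor of VEGF (1078 and 312 CPM, sinusoidal 1591), Ehd3 (1165 and 321, sinusoidal 2870) and Kdr (440 and 214, sinusoidal 2160). For these genes the Rspo3 group stood between the Gja5 group and the sinusoidal cells. Nrp1 is on the arterial list and not on the sinusoidal list, and 3 genes of the sinusoidal list were lower in the Rspo3 group. Cldn5, also high in the sinusoidal cells (1292 CPM), was lower too, at 4.87 CPM in the Rspo3 group and 1463 in the Gja5 group.

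Cldn5 separated the groups nearly cell by cell. It had 3 UMIs in 3 of 74 cells of the Rspo3 group and 1389 UMIs in 101 of 104 cells of the Gja5 group, with medians of 0 and 10 UMIs per cell. The level was 300-fold (103 to 1458) lower in the Rspo3 group, at 4.87 CPM. The sinusoidal cells stood at 1292 CPM with Cldn5 in 94.3% of cells, the Mmrn1 group at 2750 and the remaining cells at 1698, and 5.83% of the cholangiocyte gate held a UMI. The share in the Rspo3 group, 4.05% (0.844 to 11.4), was thus within its counting interval of that background, and Cldn5 was not detectable above it in these cells. Other junction genes of the list did not share this pattern. Jam2, a junctional adhesion molecule, had a ratio of 1.43, Tjp1, the scaffold ZO-1, 1.46, and Cgnl1, paracingulin, was 9.73-fold (5.71 to 17.7) higher in the Rspo3 group.

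**Figure D3:**
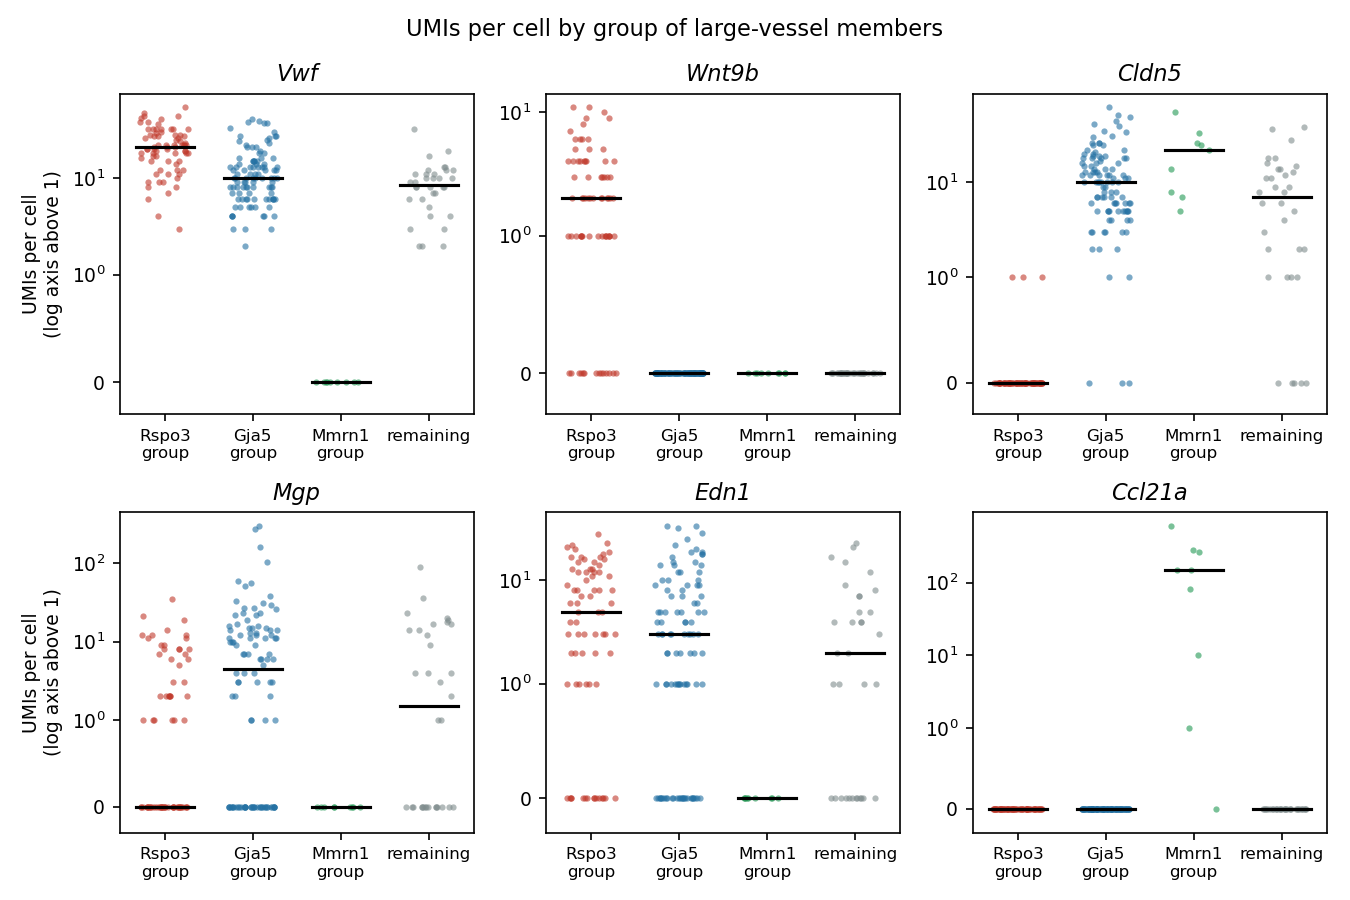
The UMIs per cell of Vwf, Wnt9b, Cldn5, Mgp, Edn1 and Ccl21a (vertical axes, logarithmic above 1) are plotted for the cells of each group of members, with a point for each cell and a bar at the median. Wnt9b lies in the Rspo3 group, Cldn5 is at 0 in 71 of the 74 cells of that group, and Ccl21a lies in 8 cells of the Mmrn1 group.

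Most genes of the arterial list that differed, and most Notch genes that differed, were higher in the Gja5 group. The arterial list also held Nrp1, which was higher in the Rspo3 group, and Edn1, Eln and Fbln5, which passed neither fold. Gja4, a partner connexin of Gja5, was at 533 CPM against 90.9 in the Rspo3 group. Sox17, a transcription factor of arterial identity, was at 258 against 40.6 and Vegfc at 386 against 11.4. Of 11 measured Notch genes, 5 were lower in the Rspo3 group and 1 higher. Dll4 was at 184 CPM in the Gja5 group and 11.4 in the Rspo3 group, Jag1 at 275 and 74.7, Nrarp, a Notch target and feedback inhibitor, at 247 and 35.7, and Hey1, a Notch target, had 38 UMIs against 0. Lfng, which modifies Notch receptors, was the gene that was higher in the Rspo3 group (3.93-fold). For Dll4, Gja4 and Sox17, the whole membership had stood close to the sinusoidal cells, with ratios of 0.93, 1.08 and 1.36, while its groups lay on either side of the sinusoidal levels of 133, 329 and 131 CPM.

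Col8a1, Npr3, Ly6c1, Nkx2-3 and Syt15, which headed the contrast with the sinusoidal cells, had 368, 324, 350, 116 and 142 UMIs in the Gja5 group and 0 in the Rspo3 group. Nrg1 was at 310 CPM in the Gja5 group and 6.49 in the Rspo3 group. Ednrb (593 and 45.4 CPM), Sdc1, a heparan sulfate proteoglycan (500 and 9.74), and Adgrg6, an adhesion receptor (684 and 26.0), were lower in the Rspo3 group by 13.0-fold, 51.4-fold and 26.4-fold. Mal, Ldb2, Sfrp1 and Pi16 were the other named genes of this kind. The soluble guanylate cyclase genes Gucy1a1 and Gucy1b1, which encode the nitric oxide receptor, had 131 and 70 UMIs in the Gja5 group and 1 each in the Rspo3 group. Mgp was at 1818 CPM against 412, Ly6a at 2443 against 443 and Cd34 at 260 against 50.3. The list of the basement membrane and elastic matrix had 11 lower and 1 higher of 21 measured genes in the Rspo3 group, including Sparc (4.56-fold) and Col4a1 (3.35-fold). In the list of immediate early and heat shock genes 6 of 16 genes were lower in the Rspo3 group and 0 higher, among them Fos (2.10-fold) and Egr1 (2.25-fold); the part of the cell isolation in this difference was not tested.

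Other large-vessel genes were common to both groups. Edn1 was at 873 CPM in the Rspo3 group and 656 in the Gja5 group, a ratio of 1.33. Eln was at 406 and 326 CPM, Fbln5 at 312 and 307 and Plvap at 691 and 886. Nr2f2, a transcription factor of venous identity, was at 696 and 725 CPM and at 772 in the sinusoidal cells, so that its RNA did not separate them. Bmx was seen in 39 of 74 and 60 of 104 cells, although it was chosen as an arterial marker. Vwf, at 2680 and 1391 CPM, was found in every cell of both groups, a gene of the rule.

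**Figure D4:**
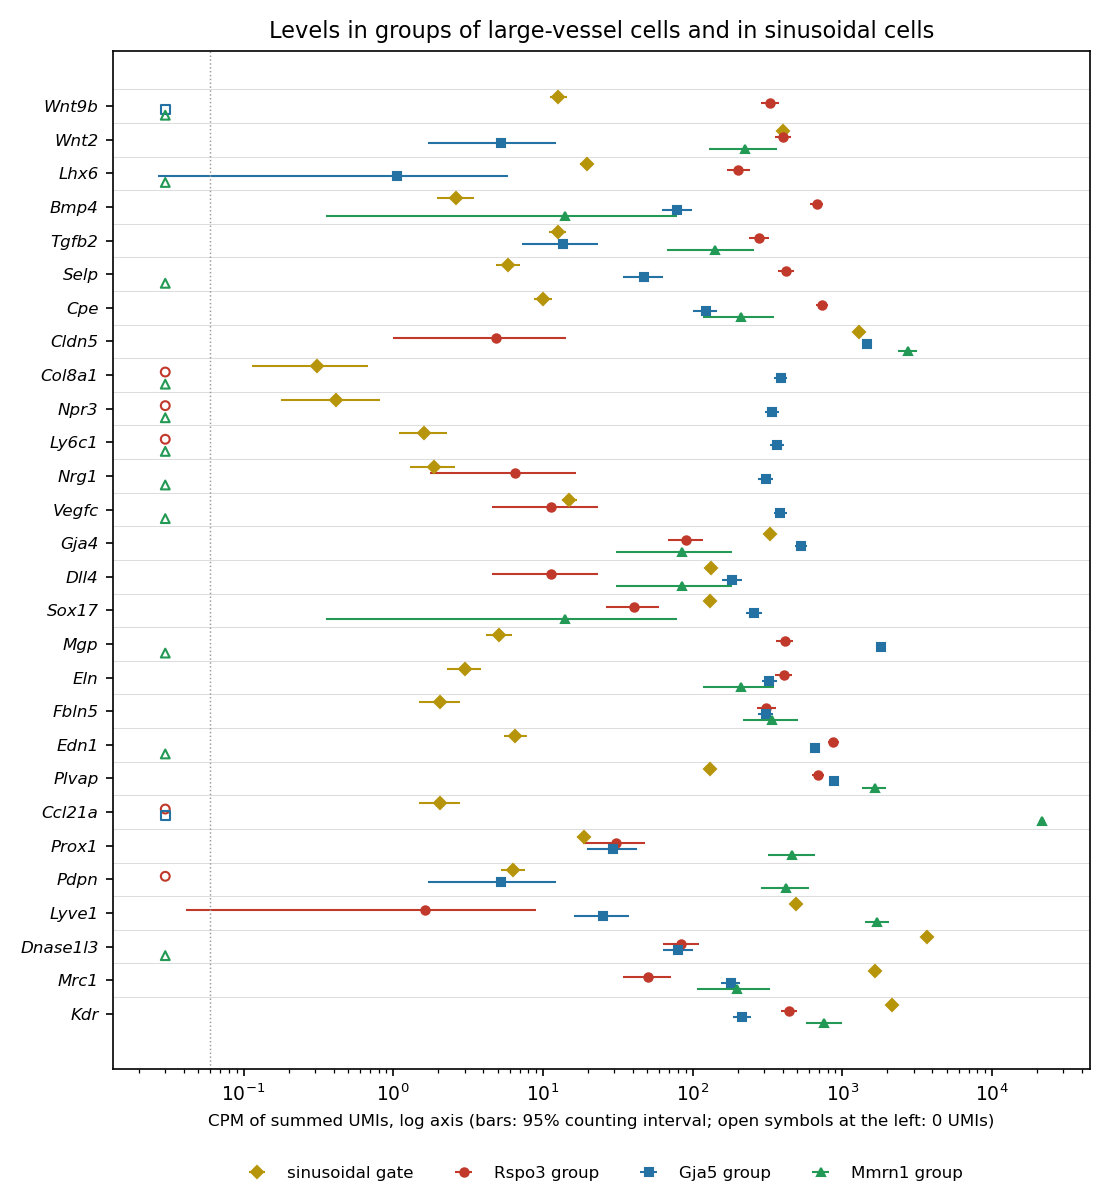
The level of each gene on the vertical axis, in CPM, is drawn on a log axis for the Rspo3, Gja5 and Mmrn1 groups and the sinusoidal cells, with bars for the 95% counting interval and open symbols at the left edge for 0 UMIs. Edn1 lies within 1.33-fold between the first 2 groups, while Cldn5 differs 300-fold.

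The Mmrn1 group held 9 cells with 5, 31 and 43 UMIs of Mmrn1 in the lowest, median and highest cell and 70915 UMIs in all. It had 0 UMIs of Vwf, Mgp, Edn1, Jam2, Selp and Nrp1, and 1 UMI of Ly6a and 2 each of Cyp1a1 and Tspan7, whereas Vwf was seen in all 212 other members. The label of large vessels thus took in cells that shared neither the von Willebrand factor nor the endothelin of the rest. Of 8652 measured genes 464 (5.36%) were at least 2-fold higher and 274 (3.17%) lower in the Mmrn1 group than in the other members, and the all-gene median of 0.54 on the log2 scale came with counts under 3 raised to 3 in so small a sum of UMIs. In the lymphatic list, 13 of 14 genes were higher and 0 lower, with a median log2 ratio of 3.89. Ccl21a, a chemokine by which lymphatic vessels draw in dendritic cells and T cells, had 1537 UMIs in 8 of the 9 cells (0, 149 and 602 in the lowest, median and highest cell) and 0 in the other members. Its highest cell held 39.2% of these UMIs. Reln, the secreted glycoprotein reelin, was seen in 9 of 9 cells (59 UMIs against 4), Pdpn, or podoplanin, in 8, and Prox1, the transcription factor of lymphatic identity, in 7. Flt4, the receptor for VEGF-C, was at 1058 CPM against 80.0, and Lyve1, a hyaluronan receptor shared with sinusoids, at 1720 against 21.1. In the sinusoidal cells Flt4 and Lyve1 stood at 628 and 492 CPM, so both genes were also at a high level in sinusoids, while Ccl21a was seen in 12 of 3044 sinusoidal cells. Thy1 (41 UMIs against 1), Pard6g, Ptx3, Stc1, Gm525 and Rbp7 completed the 8 highest; 96.2% of the Stc1 UMIs lay in 1 cell, and Rbp7 was seen in 3 cells.

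The class II antigen genes were also at a higher level in this group, through part of its cells. Cd74, the invariant chain, had 39 UMIs in 5 of 9 cells, and H2-Eb1 14 UMIs in 5 cells, against 57 and 12 UMIs in the other 212 members. In the Mmrn1 group 1 cell held 56.4% of the Cd74 UMIs. Ptprc, which encodes CD45, had 0 UMIs in all 221 members, and the immune list had 1 UMI in the Mmrn1 group. Against the sinusoidal cells, 4 of 10 antigen presentation genes were higher in all members together, among them H2-Ab1 at 6.57-fold (4.99 to 8.62), while the class I genes H2-K1 and H2-D1 had ratios of 1.02 and 0.97. Cldn5, Plvap and Cavin3 were high in the Mmrn1 group, at 2750, 1650 and 1438 CPM.

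The 34 remaining members, with a median of 6100 UMIs, had no group gene by construction except for 1 UMI each of Rspo3 and of Mmrn1. Their other genes were near those of the Gja5 group, with Cldn5 in 29 cells, Npr3 in 19, Col8a1 in 18 and Ly6a in 31, and with Dll4 at 201 CPM and Sox17 at 293. Wnt9b, Cyp1b1 and Tgfb2 had 0 UMIs in them. A grouping of the members that used the rule genes alone placed 115 cells in a Gja5 or Bmx subset, 54 in a subset with Vwf only, 8 in a Mmrn1 subset and 44 in none of these. The subset with Vwf only was led by Lhx6, Rspo3, Tnni3, Wnt2, Wnt9b, Olfm1, Alcam and Dpp4, and the Gja5 or Bmx subset by Cytl1, Npr3, Tmem158, Mbd4, Msr1, Adgrg6, Slc43a2 and Sfrp1. The subsets share cells with the Rspo3 and Gja5 groups, and between those groups the other 7 leaders of the subset with Vwf only were higher in the Rspo3 group and the 8 of the Gja5 or Bmx subset lower. Rspo3 was 3.77-fold (3.49 to 4.08) higher in the subset with Vwf only. That subset left out every cell with Gja5, and 0 members held both genes. Neither this ratio nor the sides on which the leaders of the subsets fell are therefore independent of the separation of Rspo3 and Gja5 given above.

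RNA of other cell types was present in the members and is given beside these results. Hepatocyte genes were at 2155 CPM in members and 2406 in sinusoidal cells, with Alb, the albumin gene, in 208 of 221 members, and 0 of 12 hepatocyte genes differed by 2-fold. The cholangiocyte list reached 3 UMIs in 50 members, and 7 members with at least 100 UMIs of it held 91.1% of its 3834 UMIs. The mesothelial list reached 3 UMIs in 61 members, 47 of them in the Rspo3 group, and in 104 of 3044 sinusoidal cells. In the Rspo3 group it was supplied mainly by Gpm6a, a membrane glycoprotein gene of that list, with 277 of 425 UMIs. The cholangiocyte gate also held Gpm6a, in 64.3% of its cells. Whether this RNA was the members' own was not tested, and the filter below left out all 47 of these Rspo3 cells. The mesenchymal list reached 3 UMIs in 13 members, the immune list in 3, the platelet list in 2 and the erythroid list in 0. Without the 94 members that had 3 or more UMIs of the cholangiocyte, mesenchymal, mesothelial, immune or platelet list, 25 of 74 cells of the Rspo3 group, 77 of 104 of the Gja5 group and 3 of 9 of the Mmrn1 group were left. In that smaller set, Wnt9b was at 432 CPM against 0 UMIs, Bmp4 at 774 against 82.9, Cldn5 at 0 UMIs against 1568 CPM and Dll4 at 13.9 against 197. Mgp in the Rspo3 group was at 27.9 CPM in place of 412, and Cpe, a carboxypeptidase gene of the venous list, went from 732 CPM against 122 to 105 against 151, so its higher level in the Rspo3 group was lost. The number of genes higher in the Rspo3 group was 245 in that set.

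In the CCl4 library the same rule found 28 of 7130 kept cells, or 0.393% (0.261 to 0.567), with 680 sinusoidal cells. The division recurred in these cells, with 13 that held Rspo3 only, 12 that held Gja5 only, 0 that held both and 3 that held neither. Rspo3 was at 1487 CPM and Edn1 at 447 CPM in these 28 cells, beside 1427 and 723 in the healthy members, and Wnt9b was at 524 beside 112. Mgp was at 61.1 CPM beside 1256. The mesenchymal list had 1060 UMIs in these cells, of which 1 cell held 89.0%, and its part in any value of the CCl4 cells was not tested. Condition and library cannot be told apart, and the shares of cells that the isolation recovered may differ between them.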

How the data were processed

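The authors deposited 1 matrix of raw UMI counts per gene and cell for each of 2 libraries made with a 10x Genomics 3' kit. Per the file headers the matrices came from Cell Ranger 3.1.0 (healthy, 31053 genes) and 6.0.1 (CCl4, 32285 genes), with 30406 genes in common. The submitters' processing notes name fastp 2.5.3a and featureCounts 1.6.2 and the builds GRCh38 and mm10, while the gene identifiers are those of mouse. Cells under 1000 UMIs or above 30% mitochondrial UMIs were left out (717 of 6297 in the healthy library), doublets were kept, and no background was subtracted.

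UMIs were summed over the cells of a gate and scaled to CPM. Ratios carry exact conditional binomial 95% intervals, shares exact Clopper-Pearson intervals and levels exact Poisson intervals. No test was made, since there was a single library of each condition. A gene was measured with at least 20 UMIs in both groups together, without the 11 rule genes, and higher or lower at 2-fold or more with the interval on that side of 1. Counts under 3 were raised to 3. The named genes were the 15 highest and the 15 lowest ratios at 50 CPM or more, the 8 highest of each subset at 100 CPM and 20 UMIs or more, the same for the groups, and genes of 23 gene lists; 2 named genes are not reported here. Shares were also computed at 2000 UMIs per cell. The cholangiocyte gate had at least 5 UMIs of Epcam, Krt7 and Krt19 and at most 1 UMI of the endothelial genes. The members, the lists and the rules were chosen with earlier results of these data known, and the Rspo3, Gja5 and Mmrn1 groups after seeing these values. Ratios were tested on simulated data. Tools were python 3.11.15, numpy 2.4.6, scipy 1.17.1, pandas 2.3.3, scanpy 1.11.5 (Scrublet scores), matplotlib 3.10.9, R 4.3.3 and edgeR 4.0.16 (TMM factors of summed counts only).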

Additional observations from a re-analysis of the deposited data

How the results depend on the processing

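Alternatives were other UMI minimums (500 and 2000), a mitochondrial limit of 10%, 5 large-vessel UMIs, removal of 317 cells by Scrublet score (14 members), removal of cells with UMIs of other cells, TMM or other scalings, background subtraction, another sinusoidal gate and other count filters. All 30 genes named by rank against the sinusoidal cells stayed at least 2-fold on the same side under each alternative that was run, although the ratio left its counting interval for 10 of them after background subtraction, 10 without cells with UMIs of other cells, 3 with the mean of each cell's CPM and 2 without the highest Scrublet scores (the ratio of Ccl21a, 408, was 70.1 without cells with UMIs of other cells), and 83 of the main values stayed within their limits while 9 moved. Leaving out cells with UMIs of other cells gave 127 members, with 3 in the Mmrn1, 28 in the Vwf-only and 19 in the mixed subset, and 245 genes higher in the Rspo3 group in place of 414. The mean of each cell's CPM, in which shallow cells count as much as deep ones, gave 1433 genes higher and 1190 lower in place of 927 and 947, and a minimum of 100 UMIs per gene gave 503, as fewer genes were measured. The 1433 and 1190 genes were counted at 2-fold without the interval condition of the main counts. How much of the rise came from that and how much from the weighting was not tested. With 3 UMIs for a subset, the Gja5 or Bmx subset held 75 and the mixed subset 83 cells. The median of the lymphatic list, 1.43 on the log2 scale, was 0.52 without cells with UMIs of other cells and 4.93 after background subtraction; the cause was not tested. The limits on Rspo3 and Gja5, and the run without the Mmrn1 group (870 genes higher and 950 lower), were chosen after seeing the data. No value could be computed without 1 replicate, and no paired analysis was possible because each condition had 1 library. For the 9 cells of the Mmrn1 group, depth limits what can be said of genes with few UMIs.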
